A study of Homo sapiens with 6 samples.

Results

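The genes described here encode the factors that start and extend a protein chain on the ribosome, the eukaryotic initiation factors (eIF1 to eIF6) and elongation factors (eEF1 and eEF2), with the enzymes and partner proteins whose gene names begin the same way. They were taken from the deposited count table as protein-coding rows whose symbol starts with EIF1 to EIF6, EEF1 or EEF2, leaving out the EIF2AK kinases, chromosome Y and rows with a mean below 10 counts over the 6 libraries. Of 28491 genes in the table, 68 protein-coding rows carried such a symbol and 63 were kept. The 5 rows left out were EIF1AY on chromosome Y, EIF4E1B with a mean of 6.67 counts, and EIF2S3B, EIF4EBP3 and EEF1AKMT4-ECE2, each with a mean of 0.833 counts. Just inside the limit were EIF5AL1, with a mean of 22.7 counts, and EIF3CL, with 76.2. All 63 genes also passed the filter on low counts of the test and are counted below.

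In the cell, eIF4F (the cap-binding protein eIF4E, the scaffold eIF4G and the RNA helicase eIF4A) loads an mRNA onto the small ribosomal subunit, which carries eIF1, eIF1A, eIF3, eIF5 and the eIF2 complex that delivers the initiator tRNA. eIF2B reloads eIF2 with GTP, and the 4E-BP proteins hold eIF4E away from eIF4G. eIF5B joins the large subunit, eEF1A brings each following tRNA, eIF5A helps at difficult peptide bonds, and eEF2 moves the ribosome along the mRNA.

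Poly(A) RNA was sequenced from HCT116 cells, a human colorectal carcinoma line, 48 h after lipid transfection with a plasmid carrying RBM47, which encodes an RNA-binding protein (RBM47-OE, 3 libraries), or with a control plasmid (NC, 3 libraries). The comparison asks which transcripts differ when this protein is overexpressed. The sources differ on the plasmid (pcDNA3.1-3xFlag-RBM47 in the labels, pIRES-hrGFP-1a in the methods), on the medium (DMEM or McCoy's 5A) and on the stranded library kit (NEBNext or KC). Both groups are the same line with no other allele or agent named, and the overexpression is transient and driven from a plasmid. No source says that the libraries of a group came from separate cultures, so the p-values measure the spread between libraries, which may be technical.

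The libraries held between 26792409 and 35477983 counts on genes. RBM47, the overexpressed gene, was at 1.91 to 2.33 FPKM in NC and at 127.0 to 131.3 FPKM in RBM47-OE, a log2 fold change of 5.90 (SE 0.0964, adjusted p = 1.7e-25). The 6 epithelial markers examined (EPCAM, CDH1, KRT8, KRT18, KRT19 and CLDN7) were all expressed, from 12.9 FPKM for CDH1 upward, whereas of 8 markers of other cell types PTPRC and DCN had no row, CD3E, PECAM1 and COL3A1 had at most 8 counts, and COL1A1, the highest, was at 1.31 to 1.72 FPKM. In each library, log2 CPM followed the GC content of the exons to a different degree. Over 16233 genes, Spearman's rho between GC content and the log2 difference from NC was -0.41, -0.59 and -0.67 in RBM47-OE replicates 1, 2 and 3, and between -0.16 and 0.13 for each NC library against the others. RBM47-OE replicate 1 stood furthest from its group, with a median absolute log2 difference of 0.185 and 0.194 from the others, against 0.102 to 0.107 within NC. A fit in which each library's curve of level against GC content was subtracted, called the GC offset below, is given beside the results it changes. For some genes so is an offset from the GC content of canonical transcripts, a choice made after seeing the data.

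At an adjusted p under 0.05 in edgeR's quasi-likelihood test, RBM47-OE had higher levels of 18 and lower levels of 24 of the 63 translation factor genes, and 21 did not pass. The libraries are bulk RNA, in which fewer cells with a transcript and less of it per cell cannot be told apart. Over all 16260 genes tested the test called 19.1% higher and 16.9% lower, against 28.6% and 38.1% of the translation factor genes. These genes are abundant, so that the 66.7% of them called in either direction stood against 35.9% of all genes tested but against 62.0% of the 1528 tested genes at or above their median log2 CPM. The median log2 fold change was -0.09 over the 63 genes and 0.00 over all genes tested. Except for EIF5AL1, every called gene changed by less than 1.5-fold, and EIF5AL1 was also the single gene past the study's own thresholds of an unadjusted p under 0.01 and a fold change over 1.5, which 1.51% of all genes passed upward and 0.873% downward. On the log2 CPM scale the groups did not overlap for 18 genes that lay higher and 28 that lay lower, 28.6% and 44.4% of the set, where 23.2% and 23.4% of all genes did so. Leaving out 1 library at a time gave 10 to 21 genes higher and 18 to 26 lower, the lowest of each without NC replicate 2, and in all 6 such fits 7 higher calls and 16 lower calls passed. In these fits 35.3 to 44.7% of the called translation factor genes were higher, where 52.1 to 55.5% of the calls over all genes were. The share of all genes called in them is not given.

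**Figure D1:**
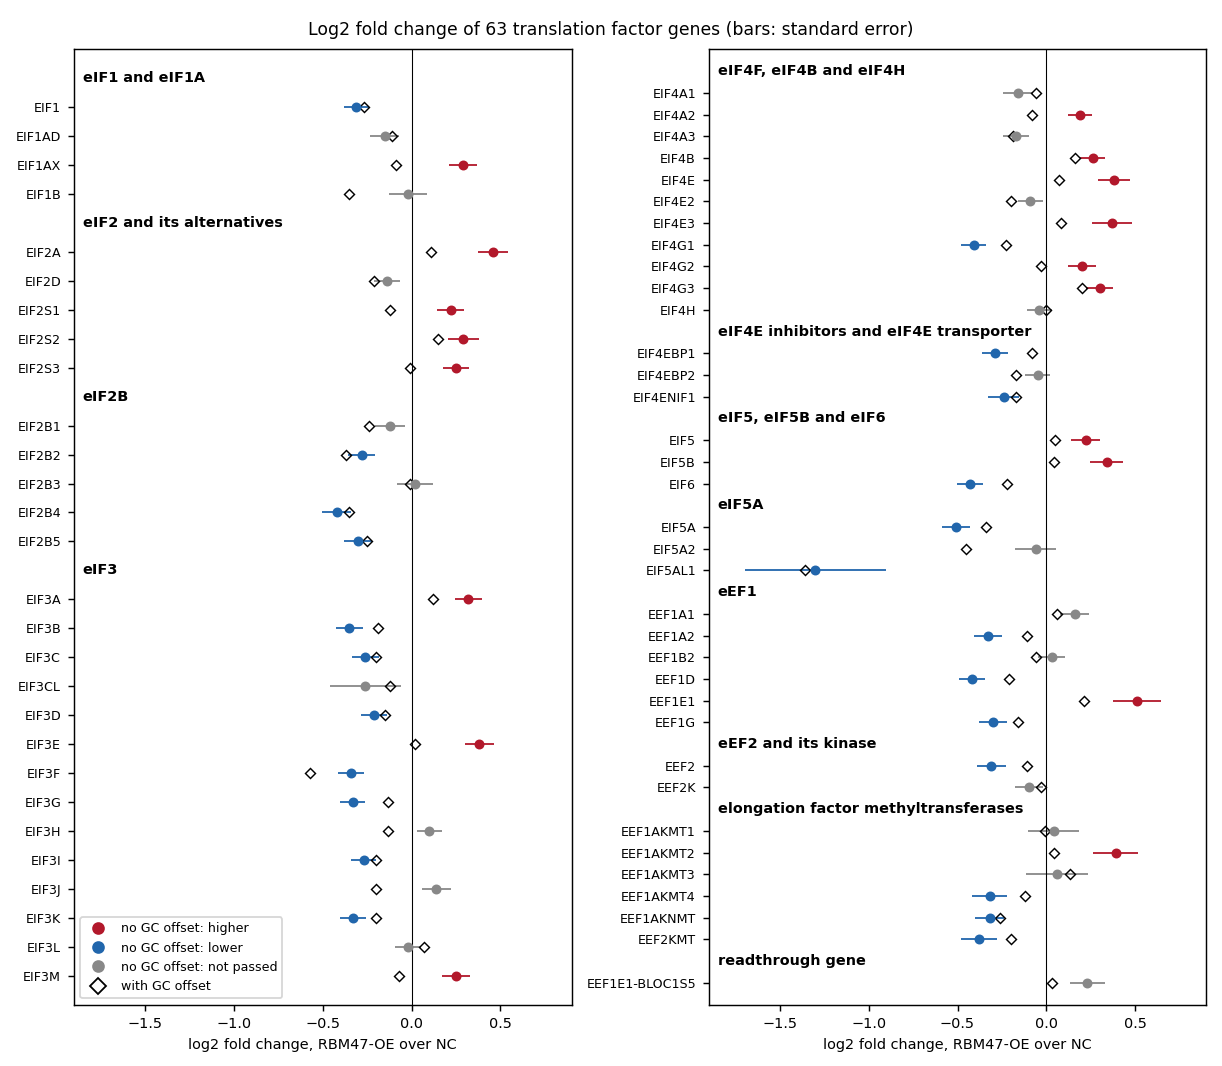
Log2 fold change of the 63 genes (horizontal axis, RBM47-OE over NC) grouped by complex, with the standard error as a bar. Filled circles are the fit without the GC offset, in red for the 18 genes that were higher, blue for the 24 that were lower and grey for the 21 that did not pass, and open diamonds are the fit with the GC offset, which lie to the left of the circles for most red genes.

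The direction of change followed base composition. The 18 higher genes had exons with a median GC content of 39.6% (35.1 to 45.3%), the 24 lower genes 53.4% (41.5 to 65.8%), and the 21 others 45.9% (33.9 to 54.3%). Across the 63 genes, Spearman's rho between exonic GC content and the log2 fold change was -0.79, against -0.63 across 16233 genes, and -0.27 after the GC offset. Genes are not independent replicates and share their libraries, so these are descriptions without a test. With the GC offset, 1 gene was higher and 21 were lower, where 5.98% and 8.58% of all genes were called. The 1 gene, EIF4G3, had also been higher without it, and the other 17 higher calls were lost, with the value turning negative for EIF1AX, EIF2S1, EIF2S3, EIF3M, EIF4A2 and EIF4G2. Of the 24 lower calls 14 remained, in EIF1, EIF2B2, EIF2B4, EIF2B5, EIF3C, EIF3F, EIF3I, EIF3K, EIF4G1, EIF5A, EIF5AL1, EIF6, EEF1D and EEF1AKNMT, and 7 further genes became lower. The offset removes any change that runs with GC content, so base composition and overexpression cannot be told apart for the calls it ends.

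**Figure D2:**
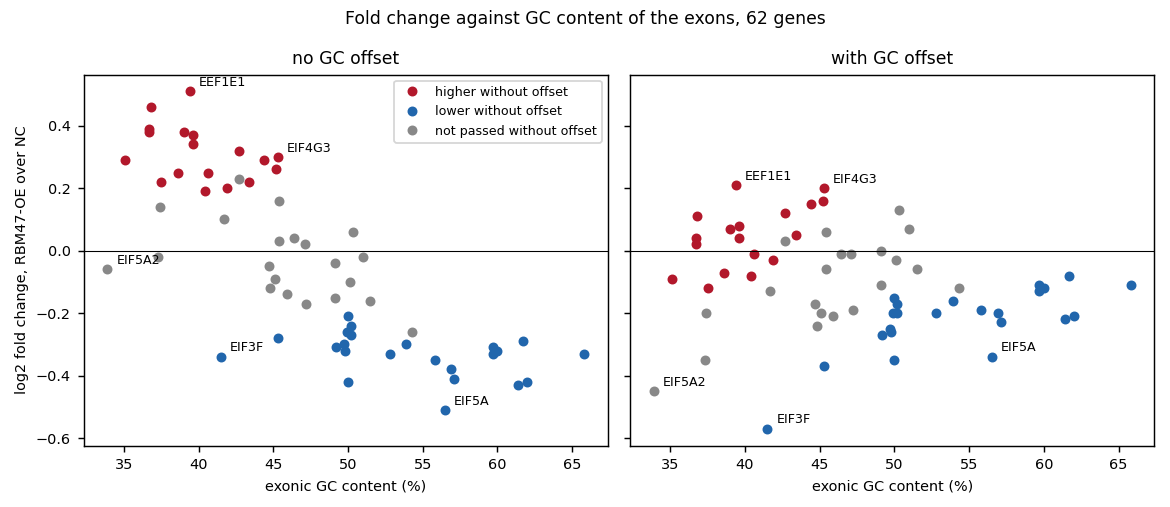
GC content of the exons (horizontal axis, percent) against the log2 fold change (vertical axis) of 62 genes, without EIF5AL1 at -1.30, in the fit without (left) and with (right) the GC offset. Colours give the call without the offset. The slope on the left, with rho of -0.81 for these 62 genes, is much flatter on the right, where EIF3F and EIF5A2 lie lowest.

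The eIF5A family held the largest falls. eIF5A proteins are the only ones known to carry the modified amino acid hypusine, which they need for their work at the ribosome. EIF5A (ENSG00000132507.18, chr17:7306999-7312463 of GRCh38) was at 621.2, 651.3 and 626.4 FPKM in the NC libraries and at 500.8, 436.6 and 464.8 FPKM in the RBM47-OE libraries, with means of 632.9 ± 16.1 and 467.4 ± 32.2 (SD, n = 3). Every RBM47-OE library lay well below every NC library. This was a log2 fold change of -0.51 (SE 0.0786, adjusted p = 5.9e-05), or 0.704 of the NC level, and -0.34 (adjusted p = 0.0017) with the GC offset. EIF5A took 0.191 to 0.197% of all counts in NC and 0.133 to 0.152% in RBM47-OE.

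EIF5AL1 (ENSG00000253626.4, chr10:79512533-79516440) is a copy of EIF5A on another chromosome and was counted at 44, 33 and 18 reads in NC and at 14, 18 and 9 reads in RBM47-OE, so that a library of each group shared the value of 18 reads. Its log2 fold change was -1.30 (SE 0.397, adjusted p = 0.012), and it did not pass without NC replicate 1 (-0.87, adjusted p = 0.15), without RBM47-OE replicate 3 (-1.12, adjusted p = 0.067) or in limma on FPKM. The coding sequences of both genes in GENCODE 44 are 462 bases without the stop codon and 98.9% identical, differing at 5 positions counted from the A of the start codon, C12T, C106T, C123G, A133G and G326C (EIF5A first). Coding sequence between these positions is the same in both genes. The stretch from base 105 to base 134, where a read would differ between them, holds 3 of the positions, in capitals below:
EIF5A: cCggccatgtaagatcgtCgagatgtctAc
EIF5AL1: cTggccatgtaagatcgtGgagatgtctGc
The EIF5AL1 reads were 0.0225 to 0.086% of the summed reads of both rows. Only uniquely mapped reads were counted, and no file tells which of these reads arose from EIF5A. EIF5A2, a paralog with tissue-restricted expression, was low at 1.57 to 1.79 FPKM in NC and 1.62 to 1.69 FPKM in RBM47-OE. It had a log2 fold change of -0.06 (adjusted p = 0.71), and of -0.45 (adjusted p = 0.012) with the GC offset, its exons having the lowest GC content of the set at 33.9%.

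EIF6, whose product keeps the ribosomal subunits apart until the large subunit is mature, was lower, at 89.7, 97.7 and 94.0 FPKM in NC and 78.5, 67.7 and 72.7 FPKM in RBM47-OE. The groups did not overlap, and the log2 fold change was -0.43 (SE 0.0753, adjusted p = 1.7e-04), and -0.22 (adjusted p = 0.014) with the GC offset. EIF5B, the subunit-joining GTPase, went the other way, from 16.9, 16.2 and 15.4 FPKM in NC to 17.3, 21.9 and 25.5 FPKM in RBM47-OE. Its RBM47-OE replicate 1 lay next to the NC libraries and overlapped them on the log2 CPM scale. The log2 fold change of 0.34 (SE 0.0921, adjusted p = 0.0052) did not pass without RBM47-OE replicate 3 (0.20, adjusted p = 0.068) and was 0.04 (adjusted p = 0.75) with the GC offset. EIF5, the GTPase-activating partner of eIF2, had a log2 fold change of 0.22 (adjusted p = 0.033), and 0.05 with the GC offset. Its groups overlapped, and it did not pass in 5 of the 6 fits without 1 library (adjusted p = 0.083 to 0.22), with the replicate block (adjusted p = 0.051) or in limma (adjusted p = 0.075).

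**Figure D3:**
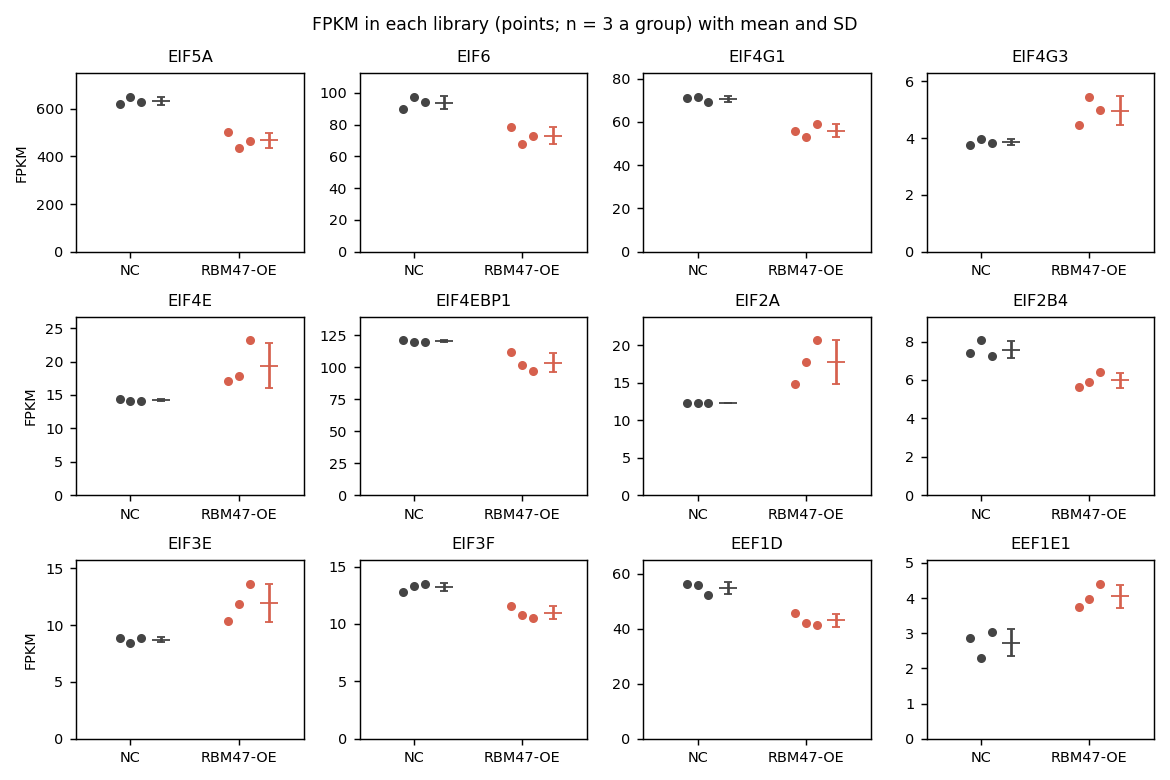
FPKM (vertical axes, each from 0) of 12 genes in the 3 NC libraries (grey points) and the 3 RBM47-OE libraries (red points), with the mean and SD of each group beside them. EIF5A, EIF6, EIF4G1, EIF4EBP1, EIF2B4, EIF3F and EEF1D lie lower in RBM47-OE and EIF4G3, EIF4E, EIF2A, EIF3E and EEF1E1 higher, with RBM47-OE libraries more spread than NC libraries in most panels.

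The eIF3 complex, the large scaffold that binds the small ribosomal subunit, had subunit genes called in both directions. Of 13 (without the near-copy EIF3CL), 3 rose, 7 fell and 3 did not pass, where 19.1% of all genes tested were higher and 16.9% lower. Among tested genes at or above the median log2 CPM of the 63 genes, 62.0% were called in either direction. None of the 13 was higher and 5 were lower with the GC offset, EIF3C, EIF3F, EIF3I, EIF3J and EIF3K. In that fit 5.98% of all genes were higher and 8.58% lower. The genes that rose were EIF3A and EIF3E, and EIF3M, which forms part of the same octameric core. EIF3A, the largest core subunit, was at 63.1, 59.9 and 61.0 FPKM in NC and at 69.7, 85.5 and 86.4 FPKM in RBM47-OE (log2 fold change 0.32, SE 0.0772, adjusted p = 0.0023). EIF3E was at 8.87, 8.45 and 8.87 FPKM in NC and at 10.3, 11.9 and 13.7 FPKM in RBM47-OE (0.38, SE 0.0814, adjusted p = 9.1e-04). Neither gene overlapped between groups, and RBM47-OE replicate 1 was the nearest to NC in both. With the GC offset they were 0.12 (adjusted p = 0.19) and 0.02 (adjusted p = 0.84), and EIF3M was -0.07. Without the offset EIF3M was 0.25 (SE 0.0772, adjusted p = 0.012). It did not pass without NC replicate 1, NC replicate 3 or RBM47-OE replicate 3 (adjusted p = 0.06, 0.075 and 0.10).

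The eIF3 genes that fell were EIF3B, EIF3C, EIF3D, EIF3F, EIF3G, EIF3I and EIF3K. EIF3B, EIF3G and EIF3I form the module at the mRNA channel that moves with scanning. EIF3B was at 55.0, 54.2 and 53.5 FPKM in NC and at 44.7, 41.2 and 47.8 FPKM in RBM47-OE, with a log2 fold change of -0.35 (SE 0.0748, adjusted p = 8.3e-04). EIF3G was at 49.0, 52.6 and 51.0 FPKM in NC and at 44.6, 41.9 and 41.1 FPKM in RBM47-OE, with a log2 fold change of -0.33 (SE 0.0707, adjusted p = 9.5e-04). Both kept a lower value with the GC offset, at -0.19 and -0.13, but did not pass (adjusted p = 0.065 and 0.12), whereas EIF3I did (-0.20, adjusted p = 0.028). EIF3I, at -0.27 (adjusted p = 0.0048) without the offset, did not pass without NC replicate 2 (-0.23, adjusted p = 0.07). EIF3D was -0.21 (adjusted p = 0.026), and it did not pass with the GC offset (-0.15, adjusted p = 0.13), with library totals (-0.15, adjusted p = 0.065), with the replicate block (adjusted p = 0.06), in limma (adjusted p = 0.11), or without NC replicate 1, 2 or 3 or RBM47-OE replicate 2 (adjusted p = 0.094, 0.14, 0.066 and 0.11).

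EIF3F, a core subunit with a deubiquitinase-like fold, fell although its exons are GC-poor at 41.5%. It was at 12.8, 13.3 and 13.5 FPKM in NC and at 11.6, 10.8 and 10.6 FPKM in RBM47-OE, without overlap. The log2 fold change was -0.34 (SE 0.071, adjusted p = 7.7e-04), and -0.57 (SE 0.0713, adjusted p = 4.6e-05) with the GC offset, the lowest adjusted p of the set in that fit. EIF3K, a small subunit, was at 57.7, 60.4 and 56.3 FPKM in NC and at 52.1, 45.3 and 48.5 FPKM in RBM47-OE. The change was -0.33 on the log2 scale (SE 0.0745, adjusted p = 0.0015), and -0.20 (adjusted p = 0.028) with the GC offset. EIF3L, the subunit with the highest FPKM averaged over the 6 libraries, was at 98.1 to 105.2 FPKM in NC and at 102.7 to 107.5 FPKM in RBM47-OE, and its log2 fold change of -0.02 (SE 0.0707, adjusted p = 0.89) changed sign between fits. EIF3H and EIF3J also did not pass (0.10 and 0.14), and EIF3J was -0.20 (adjusted p = 0.027) with the GC offset. EIF3C was -0.26 (adjusted p = 0.009) and -0.20 (adjusted p = 0.034) with the GC offset, but did not pass without NC replicate 2 or 3 (adjusted p = 0.09 and 0.058), in limma (adjusted p = 0.089) or with the offset from canonical transcripts (-0.12, adjusted p = 0.22). Its copy EIF3CL, with 60 to 89 reads a library, was -0.26 with an SE of 0.201 (adjusted p = 0.33). Only uniquely mapped reads were counted, so both rows leave out reads that fit these near-identical genes equally well.

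**Figure D4:**
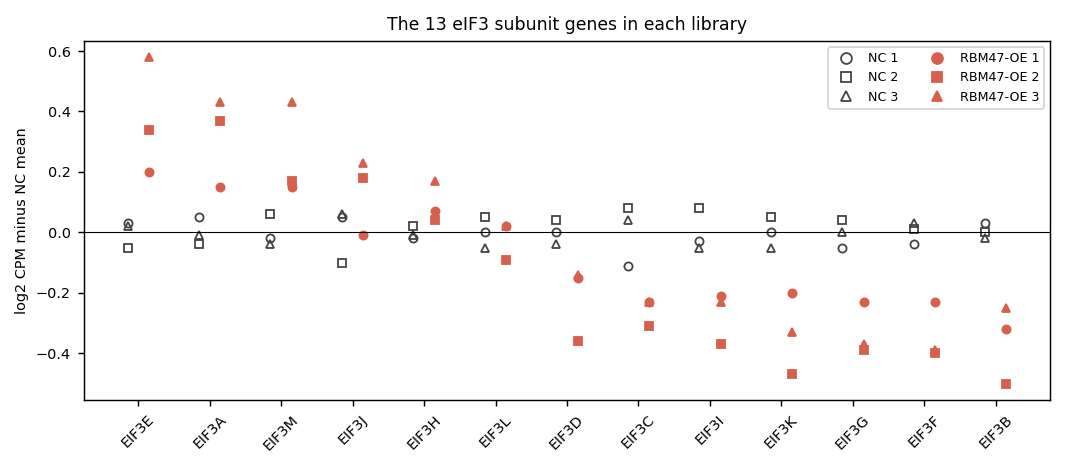
Log2 CPM of the 13 eIF3 subunit genes minus the mean of the NC libraries (vertical axis), with open grey symbols for NC, red symbols for RBM47-OE and one shape for each replicate number. EIF3E, EIF3A and EIF3M lie above 0 in the 3 RBM47-OE libraries (EIF3E at 0.20, 0.34 and 0.58) and the 7 genes from EIF3D to EIF3B lie below it (EIF3B at -0.32, -0.50 and -0.25).

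In the cap-binding group of 11 genes (eIF4F, eIF4B and eIF4H), 6 rose and 1 fell, 54.5% and 9.09% of them, where 19.1% and 16.9% of all genes tested did so. In the fit with the GC offset 1 of the 11 was higher, EIF4G3, and 3 were lower, EIF4G1, EIF4E2 and EIF4A3. Over all genes 5.98% were higher and 8.58% lower in that fit. With the offset from canonical transcripts, EIF4G3 was the 1 higher gene and EIF4G1 the 1 lower gene of the group. EIF4G1, the main scaffold of eIF4F, was the gene that fell, from 71.2, 71.8 and 69.1 FPKM in NC to 55.7, 53.0 and 58.9 FPKM in RBM47-OE. The groups were far apart, with a log2 fold change of -0.41 (SE 0.073, adjusted p = 1.9e-04), and -0.23 (adjusted p = 0.019) with the GC offset. EIF4G3, a second scaffold, rose from 3.75, 3.96 and 3.84 FPKM to 4.45, 5.47 and 5.01 FPKM (0.30, SE 0.077, adjusted p = 0.0039), and with the GC offset it was 0.20 (adjusted p = 0.03). It was singled out after its values were seen, as the single gene of the set that was higher in both fits. EIF4G2, a scaffold that lacks the eIF4E-binding part, was at 69.1, 68.2 and 69.5 FPKM in NC and at 72.5, 86.1 and 90.6 FPKM in RBM47-OE. Its log2 fold change of 0.20 (SE 0.077, adjusted p = 0.048) did not pass in 5 of the 6 fits without 1 library and was -0.03 with the GC offset.

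EIF4E, which binds the cap itself, was at 14.4, 14.1 and 14.1 FPKM in NC and at 17.0, 17.8 and 23.2 FPKM in RBM47-OE. All RBM47-OE libraries lay above NC, with replicate 3 the highest, and the log2 fold change was 0.38 (SE 0.0881, adjusted p = 0.0018), but 0.07 (adjusted p = 0.59) with the GC offset. EIF4E3, a low-level relative, was at 0.79, 0.71 and 0.76 FPKM in NC and at 1.00, 1.04 and 1.01 FPKM in RBM47-OE (0.37, SE 0.112, adjusted p = 0.012). It did not pass without NC replicate 2 (0.32, adjusted p = 0.077) or with the GC offset (0.08). EIF4E2, a cap-binding relative that can repress translation, was at 9.59 to 9.79 FPKM in NC and 9.41 to 9.75 FPKM in RBM47-OE (-0.09, adjusted p = 0.33), and -0.20 (adjusted p = 0.021) with the GC offset. With the offset from canonical transcripts EIF4E2 was -0.04 (adjusted p = 0.72). EIF4B, which stimulates the eIF4A helicase and had the highest mean FPKM of this group, rose from 148.0, 151.6 and 146.1 FPKM to 178.1, 189.5 and 195.2 FPKM (0.26, SE 0.0721, adjusted p = 0.0056), with 0.16 (adjusted p = 0.071) under the GC offset.

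The inhibitor EIF4EBP1 (4E-BP1) was lower, at 121.2, 119.9 and 119.9 FPKM in NC and 111.6, 102.0 and 97.0 FPKM in RBM47-OE, without overlap. On the log2 scale the change was -0.29 (SE 0.0732, adjusted p = 0.0036), and -0.08 (adjusted p = 0.36) with the GC offset, its exons having a GC content of 61.7%. EIF4EBP2 was at 13.8 to 15.02 FPKM in NC and 13.9 to 15.7 FPKM in RBM47-OE (-0.05, adjusted p = 0.61). EIF4ENIF1, which carries eIF4E into the nucleus, was -0.24 (adjusted p = 0.035), and -0.17 (adjusted p = 0.12) with the GC offset. It also did not pass in 5 of the 6 fits without 1 library (adjusted p = 0.067 to 0.17), with library totals (adjusted p = 0.12), without the filter (adjusted p = 0.083), with the replicate block (adjusted p = 0.064) or in limma (adjusted p = 0.13).

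The helicase gene EIF4A1 shares its locus with a readthrough gene, and the deposited table split its reads. The EIF4A1 row (chr17:7572824-7579006) held 1137 to 1564 counts a library, whereas the SENP3-EIF4A1 row (chr17:7563287-7578715), which is not a translation factor row by its symbol, held 36892 to 53854, or 96.7 to 97.2% of their sum. The EIF4A1 row was at 7.53, 7.52 and 7.25 FPKM in NC and 7.11, 6.32 and 7.48 FPKM in RBM47-OE. The groups overlapped in FPKM but not on the log2 CPM scale, and the log2 fold change of this row was -0.16 (SE 0.0837, adjusted p = 0.13). The SENP3-EIF4A1 row was at 385.5, 382.5 and 367.6 FPKM in NC and 338.5, 316.1 and 326.5 FPKM in RBM47-OE, with a log2 fold change of -0.28 (SE 0.0745, adjusted p = 0.0046), and -0.13 (adjusted p = 0.19) with the GC offset. With the rows summed, the locus was lower (-0.28, adjusted p = 0.0051). EIF4A2, a close paralog with the same helicase function, was at 43.9, 44.3 and 44.2 FPKM in NC and at 53.6, 52.6 and 52.1 FPKM in RBM47-OE. With a log2 fold change of 0.19 (SE 0.0685, adjusted p = 0.035) it passed, but not without any 1 of the NC libraries (adjusted p = 0.13 to 0.14), and the value was -0.08 with the GC offset. EIF4A3, a subunit of the exon junction complex, did not pass (-0.17, adjusted p = 0.074), and was -0.19 (adjusted p = 0.041) with the GC offset and -0.13 (adjusted p = 0.15) with the offset from canonical transcripts.

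Ratios between related genes within a library do not depend on how libraries are scaled, and 5 pairs were compared. The log2 FPKM ratio of EIF4G2 over EIF4G1 was -0.04, -0.07 and 0.01 in NC and 0.38, 0.70 and 0.62 in RBM47-OE, a difference of 0.60. EIF4E2 over EIF4E was -0.57, -0.53 and -0.55 in NC and -0.86, -0.92 and -1.25 in RBM47-OE, a difference of -0.46. For these pairs, as for EIF4A2 over EIF4A1 (difference 0.35) and EIF4EBP2 over EIF4EBP1 (0.24), the groups did not overlap. The exact two-sided permutation test gave p = 0.10 for each of these 4 pairs, the smallest that 3 libraries against 3 allow, and 0.12 after Benjamini-Hochberg adjustment over the 5, so no pair could pass. EIF1B over EIF1 overlapped between groups (difference 0.28, exact permutation p = 0.40). The EIF4A1 value in these ratios is that of its own row and leaves out the readthrough row. In each of the 4 pairs without overlap, the gene at a relatively lower level in RBM47-OE had the more GC-rich exons, at 57.1% for EIF4G1 against 41.9% for EIF4G2, 45.1% for EIF4E2 against 39.0% for EIF4E, 51.5% for EIF4A1 against 40.4% for EIF4A2 and 61.7% for EIF4EBP1 against 44.7% for EIF4EBP2.

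**Figure D5:**
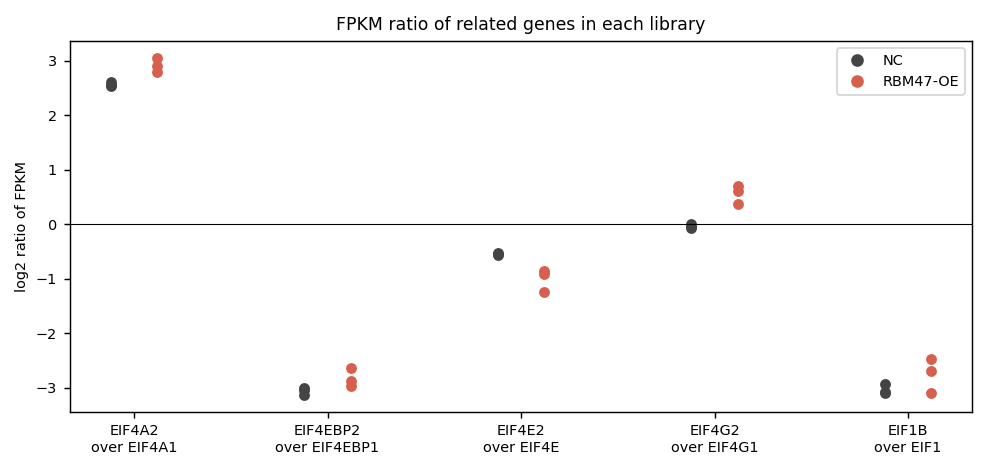
Log2 ratio of FPKM of 5 pairs of related genes (vertical axis) in each NC (grey) and RBM47-OE (red) library. The groups are apart for the first 4 pairs, with EIF4G2 over EIF4G1 moving from about 0 (-0.07 to 0.01) to 0.38 to 0.70, and overlap for EIF1B over EIF1.

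The genes of eIF2 and of the factors that can deliver tRNA in its place were higher in 4 of 5 cases, while those of its exchange factor eIF2B were lower in 3 of 5 and higher in none, where 19.1% of all genes tested were higher and 16.9% lower. Of the 5 genes of eIF2 and its alternatives, none was higher and 1 was lower with the GC offset, EIF2D, and so were 4 of the 5 eIF2B genes. In that fit 5.98% of all genes were higher and 8.58% lower. EIF2D, which encodes another alternative tRNA carrier, was -0.14 (adjusted p = 0.14), -0.21 (adjusted p = 0.02) with the GC offset and -0.05 (adjusted p = 0.65) with the offset from canonical transcripts. EIF2A, which encodes an alternative initiator tRNA carrier and not a subunit of eIF2, was at 12.3, 12.3 and 12.2 FPKM in NC and at 14.9, 17.8 and 20.7 FPKM in RBM47-OE. NC libraries were nearly identical and RBM47-OE libraries spread widely above them, with a log2 fold change of 0.46 (SE 0.0851, adjusted p = 2.5e-04), and 0.11 (adjusted p = 0.26) with the GC offset. EIF2S3, the tRNA-binding gamma subunit, was at 60.5, 59.2 and 60.4 FPKM in NC and at 68.3, 77.9 and 79.5 FPKM in RBM47-OE (0.25, SE 0.0711, adjusted p = 0.0069). It did not pass without NC replicate 2 (0.24, adjusted p = 0.062) and was -0.01 with the GC offset. EIF2S1 and EIF2S2, the alpha subunit that the stress kinases phosphorylate and the beta subunit, were 0.22 (adjusted p = 0.029) and 0.29 (adjusted p = 0.011), and neither passed with the GC offset (-0.12 and 0.15). EIF2S1 did not pass without any 1 of the NC libraries or RBM47-OE replicate 3 (adjusted p = 0.071 to 0.20), nor EIF2S2 without RBM47-OE replicate 2 (0.18, adjusted p = 0.12). With the replicate block EIF2S1 also did not pass (adjusted p = 0.054). The groups overlapped for EIF2S2 on the log2 CPM scale, and it did not pass in limma on log2(FPKM + 1) (adjusted p = 0.066).

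Of the eIF2B genes, EIF2B4, the delta subunit, was at 7.41, 8.08 and 7.25 FPKM in NC and at 5.66, 5.88 and 6.40 FPKM in RBM47-OE. The groups did not overlap, and the log2 fold change was -0.42 (SE 0.0816, adjusted p = 4.4e-04), or 0.75 of the NC level, and -0.35 (adjusted p = 0.0017) with the GC offset. EIF2B5, the catalytic epsilon subunit, was -0.30 (adjusted p = 0.0035) and EIF2B2, the beta subunit, -0.28 (adjusted p = 0.0061), and both passed with the GC offset as well (-0.25 and -0.37). EIF2B2 did not pass without NC replicate 2 (-0.26, adjusted p = 0.052). EIF2B1, the alpha subunit and the highest of the 5 in mean FPKM, was at 9.11 to 10.1 FPKM in NC and 8.35 to 9.81 FPKM in RBM47-OE (-0.12, adjusted p = 0.28), and -0.24 (adjusted p = 0.019) with the GC offset. EIF2B3 was 0.02 (adjusted p = 0.90).

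EIF1, which keeps the scanning ribosome strict in its choice of start codon, was lower at 96.2, 95.3 and 96.0 FPKM in NC and 81.9, 84.7 and 77.2 FPKM in RBM47-OE. The log2 fold change was -0.31 (SE 0.0692, adjusted p = 0.0013) and stayed at -0.27 (adjusted p = 0.0029) with the GC offset. Its paralog EIF1B was at 11.3, 11.4 and 12.5 FPKM in NC and 12.7, 9.85 and 13.9 FPKM in RBM47-OE, which overlapped (-0.02, adjusted p = 0.91), and was -0.35 (adjusted p = 0.033) with the GC offset. With the offset from canonical transcripts EIF1B was -0.22 (adjusted p = 0.18). EIF1AX, the scanning partner of EIF1, was 0.29 (adjusted p = 0.0048) and, with the most GC-poor exons of the called genes at 35.1%, -0.09 with the GC offset.

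The elongation factors included the most abundant transcripts of the set. EEF1A1, which encodes the tRNA carrier, was at 972.6, 976.4 and 920.3 FPKM in NC and 1095.8, 1116.9 and 1151.4 FPKM in RBM47-OE. It took 1.05 to 1.12% of counts in NC and 1.25 to 1.30% in RBM47-OE, without overlap. The log2 fold change of 0.16 (SE 0.0814, adjusted p = 0.13) did not pass in edgeR but passed in DESeq2 (adjusted p = 0.026) and in limma on log2(FPKM + 1) (0.23, adjusted p = 0.027), and it was 0.06 with the GC offset. EEF1A2, its paralog typical of muscle and neurons, was at 118.7, 127.8 and 129.9 FPKM in NC and 114.6, 105.5 and 95.3 FPKM in RBM47-OE (-0.33, SE 0.0782, adjusted p = 0.0023), and -0.11 (adjusted p = 0.23) with the GC offset, at a GC content of 65.8%.

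EEF1D, a subunit of the exchange factor that recharges eEF1A with GTP, fell from 56.5, 55.9 and 52.4 FPKM to 45.8, 42.0 and 41.4 FPKM. The groups did not overlap, and the log2 fold change was -0.42 (SE 0.0741, adjusted p = 1.7e-04), and -0.21 (adjusted p = 0.019) with the GC offset. Of the other exchange factor genes, EEF1G was -0.30 (adjusted p = 0.0042), and -0.16 (adjusted p = 0.11) with the GC offset, and EEF1B2 was 0.03 (adjusted p = 0.79). EEF1E1, which encodes a scaffold protein of the tRNA synthetase complex, was the gene with the largest rise, from 2.86, 2.29 and 3.02 FPKM to 3.75, 3.98 and 4.41 FPKM (0.51, SE 0.133, adjusted p = 0.0045). It did not pass without NC replicate 2 (0.39, adjusted p = 0.057) or with the GC offset (0.21, adjusted p = 0.29). The EEF1E1-BLOC1S5 readthrough row, which takes 72.2 to 80.4% of the summed reads of both rows, was at 22.5, 25.5 and 24.9 FPKM in NC and 26.5, 29.7 and 33.6 FPKM in RBM47-OE (0.23, SE 0.0973, adjusted p = 0.068). The summed locus was 0.30 (adjusted p = 0.011).

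EEF2, the translocase, had the highest FPKM of the set averaged over the 6 libraries, at 1307.8, 1322.4 and 1325.8 FPKM in NC and 1213.0, 1104.8 and 1036.5 FPKM in RBM47-OE, where its mean was 1118.1, against 1121.3 for EEF1A1. This ranking rests on the length of all exons, 4021 bases for EEF2 and 10063 for EEF1A1. By reads EEF1A1 was the higher, with 1.05 to 1.30% of counts against 0.467 to 0.605% for EEF2. The groups did not overlap for EEF2, and its log2 fold change was -0.31 (SE 0.0827, adjusted p = 0.0051), and -0.11 (adjusted p = 0.31) with the GC offset. EEF2K, the kinase that inhibits eEF2, was -0.10 (adjusted p = 0.35). Among the 6 methyltransferase genes that modify the elongation factors, EEF1AKMT2 rose (0.39, SE 0.126, adjusted p = 0.017) and EEF2KMT (-0.38, SE 0.102, adjusted p = 0.0055), EEF1AKMT4 (-0.32, adjusted p = 0.014) and EEF1AKNMT (-0.32, adjusted p = 0.0027) fell. Of the 6, 16.7% were thus higher and 50.0% lower, where 19.1% and 16.9% of all genes tested were. EEF1AKMT2 was at 1.27, 1.00 and 1.19 FPKM in NC and 1.42, 1.70 and 1.63 FPKM in RBM47-OE, and did not pass without NC replicate 2, RBM47-OE replicate 2 or RBM47-OE replicate 3 (adjusted p = 0.14, 0.068 and 0.051). EEF2KMT was at 6.94, 7.11 and 6.2 FPKM in NC and 5.57, 4.82 and 6.01 FPKM in RBM47-OE, and did not pass without RBM47-OE replicate 2 (-0.28, adjusted p = 0.052). EEF1AKMT4, the highest of these in mean FPKM, was at 18.2 to 19.5 FPKM in NC and 14.7 to 17.4 FPKM in RBM47-OE, and did not pass without NC replicate 2 or RBM47-OE replicate 2 (adjusted p = 0.079 and 0.082). EEF1AKNMT alone of the 4 passed with the GC offset (-0.26, adjusted p = 0.011), where 5.98% of all genes were higher and 8.58% lower.

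Many mRNAs of the translation machinery begin with a C followed by a run of pyrimidines, the 5' terminal oligopyrimidine (TOP) motif, through which mTOR signalling and the protein LARP1 set their translation. Promoter sequences of RefSeq (GRCh38.p14) were given for 49 of the 63 genes, and 12 of the 49 (24.5%) had a C at an annotated start followed directly by at least 4 C or T on the transcribed strand, against 5.14% of 27305 genes. Of these 12 genes 5 were higher, 4 were lower and 3 did not pass, where 19.1% of all genes tested were higher and 16.9% lower, and of the 37 without the motif 10 were higher, 14 lower and 13 not passed. The median log2 fold change was 0.10 with the motif and -0.10 without it, and -0.08 and -0.17 with the GC offset. Without the offset, 62.0% of tested genes at or above the median log2 CPM of the 63 genes were called in either direction. With the offset none of the 12 was higher and 3 were lower, where 5.98% and 8.58% of all genes were. The starts of 3 genes called lower and 3 called higher without the offset are printed here with their log2 fold changes in that fit (10 bases before the start and 20 from it, with the pyrimidine run in capitals):
EIF3F, chr11:7987327-7987356, plus strand, log2 fold change -0.34: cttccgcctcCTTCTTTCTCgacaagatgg
EIF3K, chr19:38619178-38619207, plus strand, -0.33: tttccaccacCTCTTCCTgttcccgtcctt
EEF2, chr19:3985444-3985473, minus strand, -0.31: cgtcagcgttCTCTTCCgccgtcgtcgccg
EIF4B, chr12:53006446-53006475, plus strand, 0.26: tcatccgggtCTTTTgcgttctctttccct
EIF2S3, chrX:24054946-24054975, plus strand, 0.25: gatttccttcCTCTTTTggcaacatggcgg
EIF2A, chr3:150546777-150546806, plus strand, 0.46: cgagcggtttCTCTTTCCgggacaacatgg
The exons of EIF3F, EIF3K and EEF2 have a GC content of 41.5, 52.8 and 59.7%, and those of EIF4B, EIF2S3 and EIF2A 45.2, 40.6 and 36.8%. With the GC offset the log2 fold changes of EIF3F, EIF3K and EEF2 were -0.57, -0.20 and -0.11, and those of EIF4B, EIF2S3 and EIF2A 0.16, -0.01 and 0.11, and EIF3F and EIF3K passed. An annotated start is not a measured one, and the start sites used in these cells were not measured.

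Of 74 other genes of the translation pathway (regulators and partners of these factors, mTOR signalling, termination, modifying enzymes, and mitochondrial and selenocysteine factors), 71 were tested, with a median log2 fold change of 0.11. Of the 71, 29 (40.8%) were higher and 12 (16.9%) lower, the latter the same share as the 16.9% of all genes tested, of which 19.1% were higher. With the GC offset 5 (7.04%) were higher and 10 (14.1%) lower, against 5.98% and 8.58% of all genes. The largest rises were in DEPTOR, MTIF3, HBS1L and GFM1. DEPTOR, an inhibitor of the mTOR kinase, was at 1.50, 2.07 and 1.91 FPKM in NC and 3.01, 3.33 and 3.08 FPKM in RBM47-OE, well apart. This was a log2 fold change of 0.70 (SE 0.136, adjusted p = 3.8e-04), and 0.61 (adjusted p = 0.0029) with the GC offset. MTIF3, a mitochondrial initiation factor, rose from 5.96, 5.64 and 5.80 FPKM to 7.50, 8.63 and 10.2 FPKM (0.52, SE 0.115, adjusted p = 0.0011), and was 0.43 (adjusted p = 0.007) with the GC offset, but 0.28 (adjusted p = 0.062) with the offset from canonical transcripts. HBS1L, which rescues stalled ribosomes, was 0.51 (adjusted p = 5.6e-05), and 0.16 (adjusted p = 0.048) with the GC offset, which did not pass with the replicate block added (adjusted p = 0.076). GFM1, a mitochondrial elongation factor, was 0.50 (adjusted p = 9.2e-04), and 0.19 (adjusted p = 0.13) with it.

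The largest falls among these genes were in DPH2, DOHH, AKT1S1 and MLST8, and all 4 passed with the GC offset. DPH2, of the pathway that makes the diphthamide residue of eEF2, fell from 14.1, 14.2 and 14.2 FPKM to 10.5, 9.24 and 12 FPKM (-0.49, SE 0.0899, adjusted p = 2.5e-04). DOHH, the hydroxylase that completes hypusine on eIF5A, fell from 14.5, 15.1 and 13.8 FPKM to 11.8, 11.3 and 10.5 FPKM (-0.44, SE 0.0864, adjusted p = 4.1e-04), and was -0.22 (adjusted p = 0.031) with the GC offset. AKT1S1 and MLST8, which encode the mTOR complex proteins PRAS40 and mLST8, were -0.43 (adjusted p = 2.2e-04) and -0.42 (adjusted p = 2.5e-04), and -0.23 (adjusted p = 0.011) and -0.21 (adjusted p = 0.029) with the offset. Of the 9 genes listed as eIF2alpha kinases and phosphatase subunits, 5 were higher (55.6%, where 19.1% of all genes tested were) and none was lower, and with the GC offset 0 were called in either direction. The 5 were the kinases EIF2AK3 (0.35) and EIF2AK4 (0.28), the adaptor NCK1 (0.32), and IMPACT (0.42) and DNAJC3 (0.46), which encode inhibitors of such kinases. With the offset from canonical transcripts 1 of the 9 was higher, EIF2AK4 (0.25, adjusted p = 0.0038), and none was lower. The kinase genes EIF2AK1 (0.03, adjusted p = 0.80) and EIF2AK2 (0.22, adjusted p = 0.054) and the phosphatase subunit genes PPP1R15A (-0.23, adjusted p = 0.15) and PPP1R15B (0.20, adjusted p = 0.11) did not pass. By group, 3 of 14 mTOR and MNK genes were higher and 4 lower (1 and 2 with the offset), and 6 of 11 selenocysteine and mitochondrial factors were higher and 1 lower (2 and 2 with the offset). Over all genes tested 19.1% were higher and 16.9% lower, and with the offset 5.98% and 8.58%.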

How the data were processed

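Poly(A) RNA of 6 HCT116 libraries (3 NC, 3 RBM47-OE) was examined, and all were used. Per the study's methods, the authors trimmed reads with FASTX-Toolkit, aligned them with HISAT2 to GRCh38 and counted the reads that mapped uniquely. The submitters' notes also name bcl2fastq, FastQC and DESeq2. The deposited counts are raw, 1 column a library. The authors also deposited FPKM values of the same alignments, scaled by gene length and mapped fragments. The counting tool, annotation and use of strand are not given in the sources used here, so overlapping and near-identical genes are uncertain. In NC replicate 1, with counts on genes as depth, FPKM matched the length of all exons in GENCODE 44 up to a shared factor of 1.144. This held within 1% for 51 of 55 genes with over 300 counts, so levels between genes rest on that length.

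The counts were tested in edgeR 4.0.16 (R 4.3.3; filterByExpr, minimum count 10, minimum total count 15, TMM, quasi-likelihood test, condition only) on the whole table, with Benjamini-Hochberg adjustment over 16260 genes. A gene was called at an adjusted p under 0.05. Standard errors equal the absolute log2 fold change over the root of the F statistic. Log2 CPM used a prior count of 2. The GC offset subtracts, in each library, a loess curve (span 0.3) against GC content of GENCODE 44 exons. Of the 63 genes, 55 matched GENCODE 44 by full identifier and the others without the version. Counts are whole reads, and total counts limit precision by counting error only.

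The genes, lists and comparisons were chosen with earlier results of these data known. Named with values in each library were genes past the adjusted p with a log2 change of at least 0.3 before rounding, or the 8 largest if that was longer, to at most 12 a direction, the gene of highest mean FPKM in each complex, 10 genes of 5 pairs, and of the other pathway genes the 4 largest each way. Other genes named were chosen after their values were seen. Alternatives were DESeq2 1.42.0, RLE factors, library totals, no filter, 10 counts in every library, a replicate block, the GC offset with and without it, limma 3.58.1 on FPKM (pseudocount 1 or 0.1, mean FPKM 0.1 or more), and each library left out. Ratios and figures used Python 3.11.15 with scipy 1.17.1 and matplotlib 3.10.9. On simulated counts with 200 genes changed by 1 on the log2 scale, edgeR and DESeq2 recovered 200 and limma 197.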

Additional observations from a re-analysis of the deposited data

How the results depend on the processing

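RBM47 stayed called in every alternative (log2 fold change 5.42 to 6.0, and 5.85 to 6.0 with 1 library left out). The count of translation factor genes higher in RBM47-OE moved from 18 to 1 with the GC offset, to 1 with the GC offset and replicate block and to 1 with a GC offset from canonical transcripts, an alternative chosen after seeing the data, and EIF4G3 was the gene called with either offset. At the study's thresholds 0 genes were higher and 1 lower. Lower calls numbered 21, 21 and 16 in the 3 GC fits, and 13 genes were lower without an offset and with either. With 1 library left out, 10 to 21 were higher and 18 to 26 lower, with 10 higher without NC replicate 2. For fits other than those without and with the GC offset, the share of all genes called is not given. Of the other pathway genes, 29 higher became 5 with the GC offset, 5 with the offset and block and 4 with the canonical offset, 20 to 33 were higher and 10 to 16 lower without 1 library. Of the calls over all genes, 53.1% were higher with TMM and 66.2% with library totals, which moves the median of all genes by 0.062 on the log2 scale and gave 21 translation factor genes higher and 22 lower. The replicate number was not found to pair the libraries, since same-numbered libraries correlated at -0.06, -0.015 and -0.016 in their deviations, and the replicate block gave 14 higher and 22 lower. Adding 0.1 to FPKM left each paralog ratio at the same direction. Summed loci, also chosen after seeing the data, gave 18 higher and 25 lower of 61.

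Values that turned sign were as follows. With the GC offset, with the offset and block, and with the canonical offset, EIF2S3 was -0.01, -0.01 and -0.00174, EIF4A2 -0.08, -0.09 and -0.08, EIF1AX -0.09, -0.09 and -0.09, EIF2S1 -0.12, -0.13 and -0.11, EIF3H -0.13, -0.14 and -0.18, EIF3J -0.20, -0.20 and -0.20, EIF3M -0.07, -0.07 and -0.08, EEF1B2 -0.06, -0.07 and -0.01, and EEF1AKMT1 -0.01, -0.02 and -0.04. With the first pair of these, EIF4G2 was -0.03 and -0.03, EIF2B3 -0.01 and -0.01, and EIF3L 0.07 and 0.07. With the canonical offset alone, EIF4E was -0.02, EEF1A1 -0.05 and EIF5 -0.05, and EIF4H was 0.05, and 0.000776 with the GC offset. With library totals, log2(FPKM + 1) and log2(FPKM + 0.1), EIF3L was 0.05, 0.05 and 0.05, EIF4EBP2 0.01, 0.02 and 0.02, EIF1B 0.04, 0.03 and 0.04, and EIF4H 0.02, 0.03 and 0.03, and EIF5A2 was 0.00459 and 0.01 with FPKM. Without 1 library, the lowest and highest values were -0.04 and 0.02 for EIF3L, -0.11 and 0.000342 for EIF4EBP2, -0.13 and 0.12 for EIF1B, -0.05 and 0.08 for EIF2B3, -0.06 and 0.00109 for EIF4H, -0.10 and 0.000322 for EIF5A2, -0.02 and 0.09 for EEF1B2, -0.05 and 0.12 for EEF1AKMT1, and -0.09 and 0.26 for EEF1AKMT3. Of these, the GC fits ended the calls of EIF4E, EIF2S3, EIF4A2, EIF4G2, EIF1AX, EIF2S1, EIF3M and EIF5, and the cause was not tested.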

Other observations

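The family names also cover 40 processed pseudogenes and 3 lncRNA rows, of which 10 and 2 passed the filter on low counts. Of these 12, EIF3FP3, a processed pseudogene of EIF3F, was the single one called, at 22, 34 and 30 counts in NC and 10, 17 and 14 in RBM47-OE (log2 fold change -1.12, SE 0.365, adjusted p = 0.018 in edgeR). Over all genes tested 19.1% were higher and 16.9% lower. The groups did not overlap for EIF3FP3, and it did not pass with the GC offset (-0.95, adjusted p = 0.08). Nor did it pass without NC replicate 2, NC replicate 3 or RBM47-OE replicate 1 (adjusted p up to 0.069). EEF1A1P5, the most abundant of the pseudogene rows, held 1124 to 1515 counts a library and was 0.01 (adjusted p = 0.94), beside 0.16 for EEF1A1. The lncRNA EIF3J-DT, which starts beside EIF3J, held 127 to 178 counts and was 0.06 (adjusted p = 0.80). The 63 translation factor genes together took 3.32 to 3.41% of all counts in NC and 3.38 to 3.42% in RBM47-OE. The row of DHPS, the enzyme that begins hypusine formation on eIF5A, had only 10 to 25 counts a library (0.10 to 0.22 FPKM), and its log2 fold change of 0.14 (SE 0.384, adjusted p = 0.82) has a wide error. How overlapping genes were counted is not given, and whether this row holds all reads of DHPS was not tested.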
